A study of Mus musculus with 4 samples.

Results

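Young and adult mouse cartilage were compared 3 days after injury. The comparison used 2 of the 4 RNA-seq libraries of the series, those of young and adult injured cartilage, and all 24532 genes of the table, of which 17650 were above 0 in at least 1 of both libraries. All libraries came from wild type C57BL/6 mice, including the young sham and adult sham libraries read beside them. Mice called young were aged 3 weeks. For adult mice the study's methods give an age of 10 weeks, the titles of the labels 12 weeks and their age field 14 weeks. The methods describe full-thickness cartilage injury (FTCI) made with a needle in the groove under the patella, whereas the labels of the injured libraries name DMM surgery, the destabilization of the medial meniscus. The adult sham label spans days 3 to 14. Each injured library was made from the pooled cartilage of 10 mice and each sham library from that of 5 mice. Every group was therefore 1 sample, no spread between mice was measured, and no difference given here has a replicate library, a standard error or a p-value. The study also measured some genes by qRT-PCR in other mice, which is not compared here. The question behind the comparison was how the response to the same injury differs between ages.

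Articular cartilage is made by chondrocytes, which lie in a matrix of type II collagen and the proteoglycan aggrecan without blood vessels. In growing mice the deep cartilage still turns into bone through hypertrophic chondrocytes, and the cells carry a growth program with insulin-like growth factor 2 and other imprinted genes that fades with maturity. A full-thickness defect reaches bone and marrow, so blood cells, macrophages and fibroblasts can enter the tissue that is later harvested.

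The labels give the cell type as chondrocyte. All 11 chondrocyte markers examined were at 1 FPKM (fragments per kilobase of transcript, scaled to the mapped fragments of the library) or more in both injured libraries. Genes of other cells were present as well. Wherever a pair of levels is given, the value of young cartilage comes before that of adult cartilage. In injured cartilage the 24 macrophage genes summed to 2171 and 1894 FPKM, the 20 neutrophil genes to 3419.7 and 4337 FPKM, the 18 endothelial genes to 158 and 153 FPKM and the 15 T and NK cell genes to 6.79 and 12.2 FPKM. Lcn2 alone set the direction of the neutrophil sum, since the other 19 neutrophil genes, summed after seeing the data, were at 2781 and 2221 FPKM. In tissue pools, fewer cells of a type and less RNA per cell cannot be told apart. The adult sham library stood apart in single genes, with 26541 FPKM of Cytl1 and 0.828 FPKM of the nuclear RNA Neat1, and this touches each sham ratio given here. Fragment counts were not analysed, so the precision of single values is unknown.

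A gene was called higher or lower in young cartilage when its log2 ratio of FPKM + 1, young over adult, was at least 1 either way, a 2-fold difference. Of 17650 genes tested, 561 were called higher in young injured cartilage (3.18%) and 328 lower (1.86%), and the median ratio was 0.05. The split depended on how the libraries were scaled. Median-of-ratios scaling divides each library by a factor taken from the typical gene. It lowered the ratio of abundant genes by 0.12 and gave 460 genes higher (2.61%) and 399 lower (2.26%). Rescaling both libraries to the same larger sum (TPM), which changes the scaling and also makes the added 1 count for less, gave 619 higher and 625 lower, so that 49.8% of the called genes were higher in place of 63.1%. Among the 10891 genes that reached 1 FPKM in every library, the median ratio was 0.07 unscaled, −0.03 after median-of-ratios scaling, −0.10 on the TPM scale and −0.01 after quantile normalization. Ratios below are unscaled unless stated, and those near 0 have to be read against these shifts.

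Much of the difference between the injured libraries was also present between the sham libraries, which are separate libraries. Over the same genes, 1932 were at least 2-fold higher (10.9%) and 481 at least 2-fold lower (2.73%) in young sham cartilage. The sham counts moved more than the injured ones under median-of-ratios scaling, the only other scaling for which sham counts are given here. Median-of-ratios scaling lowered the sham ratio of abundant genes by 0.44, gave 930 genes higher (5.27%) and 1062 lower (6.02%), and moved the sham median of the 10891 genes from 0.30 to −0.07. Sham ratios below are unscaled unless stated and carry this shift. Of the 561 genes higher in young injured cartilage, 394 were also higher in young sham cartilage, which is 70.2% of the injured and 20.4% of the sham genes. Of the 328 lower genes, 173 were also lower in sham cartilage, 52.7% of the injured and 36.0% of the sham genes. In the opposite direction 6 and 7 genes differed at least 2-fold. Over the 10891 genes the injured and sham ratios had a Pearson correlation of 0.66 and a Spearman correlation of 0.64, a description across genes, which share library kit and gene models and are not independent. A smaller set was near 0 in sham cartilage, with 51 of the higher and 78 of the lower genes at a sham ratio between −0.5 and 0.5. Median-of-ratios scaling gave 64 and 62. Of all 8228 genes at a mean of 5 FPKM or more over the injured libraries, 4203 had such a sham ratio. Genes near 0 FPKM in both sham libraries fall in this range because of the added 1 FPKM.

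**Figure D1:**
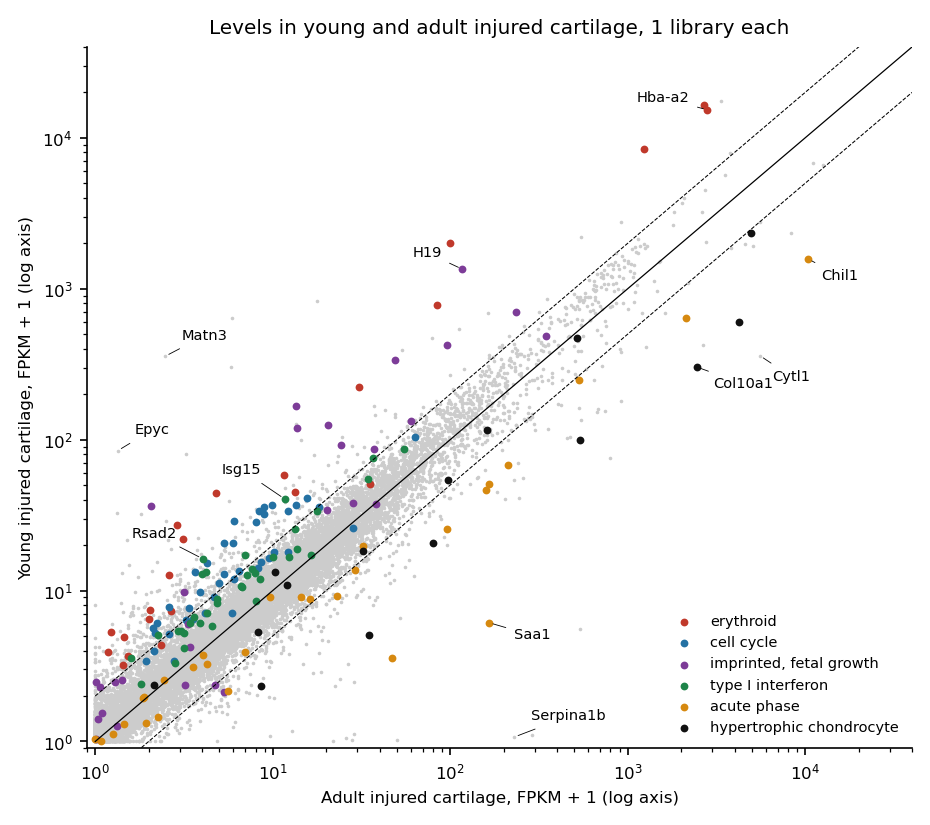
Levels of all tested genes in adult (x axis) and young (y axis) injured cartilage as FPKM + 1 on log axes, 1 library each. The solid line marks equal levels and the dashed lines 2-fold differences; Matn3 lies far above the lines at 356 and 1.48 FPKM, young first, and Saa1 far below them at 5.13 and 164 FPKM.

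The highest ratios in favour of young injured cartilage included cartilage matrix genes. Matn3 (chr12:8947929-8972028 on GRCm38.p6, the assembly of mm10), which encodes the matrix protein matrilin-3, was at 391.8 and 2.30 FPKM in sham and 356 and 1.48 FPKM in injured cartilage, with an injured ratio of 7.17. Both young libraries were high and both adult libraries low. Epyc (chr10:97644068-97681908), which encodes the small proteoglycan epiphycan, was at 77.6 and 0 FPKM in sham and 83.5 and 0.339 FPKM in injured cartilage, a ratio of 5.98. Matn1 (chr4:130944385-130955476), encoding matrilin-1, was at 1661 and 2.65 FPKM in sham and 823 and 16.8 FPKM in injured cartilage, a ratio of 5.53. For Matn1 the adult injured library was above the adult sham library, while the young injured library was below the young sham library. Among the 10 highest were also Fam180a (4.63), Wfdc2 (4.62), the imprinted zinc finger gene Zim1 (4.14) and Efemp1 (4.13), an extracellular glycoprotein gene. These 7 genes were also at least 2-fold higher in young sham cartilage. Wfdc2 was at 4.65 and 0 FPKM in sham and 31.7 and 0.326 FPKM in injured cartilage, and the young injured library was the highest.

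Several genes at both ends of the ranking have near-identical copies. Rps27, a ribosomal protein gene, was at 643 and 4.93 FPKM after injury, and its retrotransposed copy Rps27rt at 4.59 and 541 FPKM. Their sum of 647 and 546 FPKM had a ratio of 0.24. Atp6v0c, a proton pump subunit, was at 300.0 and 4.83 FPKM and its copy Atp6v0c-ps2 at 0.105 and 289 FPKM, and the ratio of their sum was 0.03. Of the 31-base words of Rps27rt 92.4% and of those of Atp6v0c-ps2 92.9% occur in other genes. The histone gene Hist2h2aa2, whose words all occur elsewhere, had a ratio of −4.79, and the sum with its copy had one of −0.81. The alpha globin gene Hba-a1 had a ratio of 4.34, and both alpha globin genes together had one of 2.57.

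At the lower end stood the Serpina1 genes, which encode alpha-1 antitrypsins, inhibitors of neutrophil elastase that the liver secretes. Serpina1b (chr12:103728156-103738189) was listed at 0 in young sham cartilage and was at 700.2 FPKM in adult sham and 0.0694 and 228 FPKM in injured cartilage, a ratio of −7.74. Only the adult libraries held more than 1 FPKM. The 5 related genes a to e summed to 0.270 and 351 FPKM after injury, a ratio of −8.12, and the sham ratio of the sum was −10.21. Cytl1 (chr5:37735519-37739820), which encodes a small secreted protein of cartilage, was at 648 and 26541 FPKM in sham and 359.7 and 5550.2 FPKM in injured cartilage, a ratio of −3.94. Both adult libraries were above both young libraries.

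**Figure D2:**
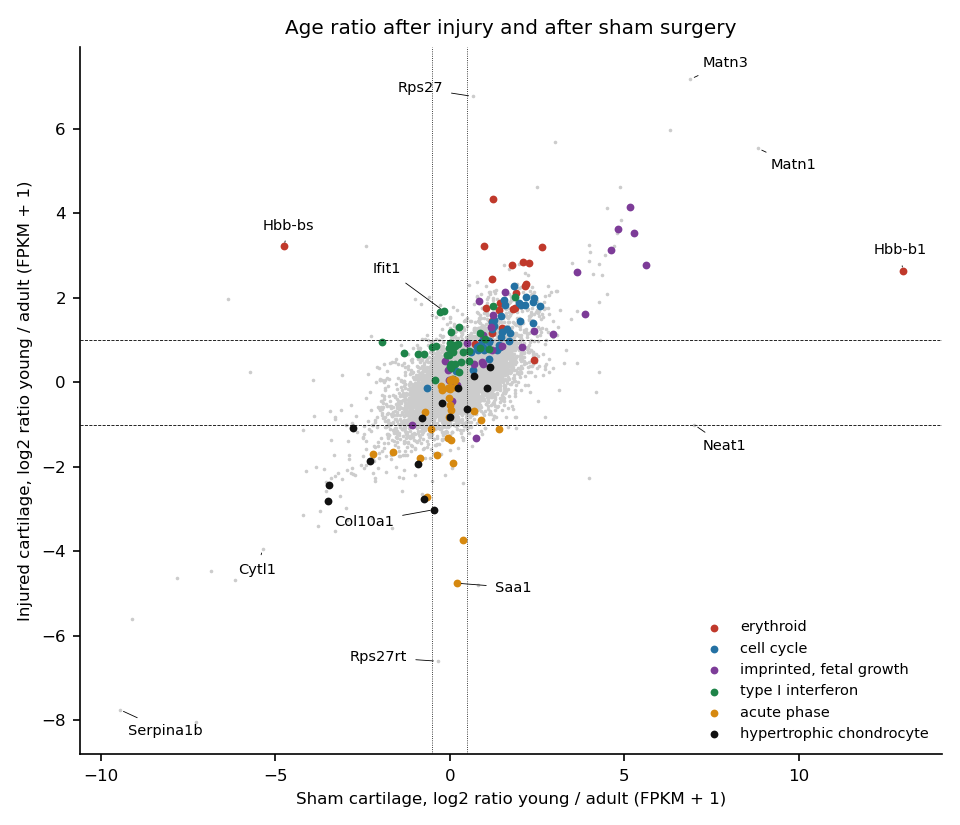
Log2 ratio of FPKM + 1, young over adult, in sham (x axis) and injured (y axis) cartilage for all tested genes, with members of 6 gene lists in colour. Dashed lines mark 2-fold in injured cartilage and dotted lines −0.5 and 0.5 in sham cartilage; Saa1, Col10a1 and Ifit1 lie at sham ratios of 0.21, −0.44 and −0.17 and injured ratios of −4.75, −3.01 and 1.69.

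Lists of genes are described by how many members were called, to be read beside 3.18% higher and 1.86% lower of all tested genes. These shares include genes below 1 FPKM in both injured libraries, which cannot be called. Of the 8228 genes at a mean of 5 FPKM or more, 306 were called higher and 227 lower. Of 22 cartilage matrix genes, 8 were higher in young injured cartilage and 4 lower, with a median ratio of 0.65. The sham median was 1.37, and the 12 called genes were called in the same direction there. Besides the matrilins and Epyc, the higher genes included Ucma (2.26), a vitamin K-dependent protein of growing cartilage, and Col9a1 (2.08), a chain of the type IX collagen that coats type II fibrils. Col9a1 was at 955 and 40.9 FPKM in sham and 687 and 162 FPKM in injured cartilage. Its adult injured level lay between that of the adult sham library and those of the young libraries. Col2a1, the chain of type II collagen, was at 9349 and 3173 FPKM in sham and 7903 and 3749.7 FPKM in injured cartilage. Its ratio was 1.08, and 0.96 after median-of-ratios scaling, so its call depended on the scaling. The 4 lower genes were Cytl1, Prelp (−2.03), Chad (−1.82) and Comp (−1.22), which encode matrix proteins of cartilage. Chad, chondroadherin, was at 2348 and 8281 FPKM after injury. Acan, which encodes aggrecan, was at 487 and 559 FPKM, a ratio of −0.20.

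Chondrogenic factors, a list of transcription factors with a receptor and secreted ligands, had a narrower range of ratios, from −1.09 to 0.63. Of 14 genes none was higher, 1 was lower and 10 had ratios below 0. Sox9, the regulator that defines chondrocytes, was at 42.3 and 31.2 FPKM in sham and 25.4 and 31.4 FPKM in injured cartilage, with ratios of −0.30 after injury and 0.43 after sham surgery, the latter 0.00 after median-of-ratios scaling. The lower gene, Foxa2, which acts in hypertrophic chondrocytes, was at 13.9 and 3.00 FPKM in sham and 6.78 and 15.5 FPKM in injured cartilage. The adult injured library was above the adult sham library and the young injured library below the young one. The list medians were −0.34 in injured and 0.50 in sham cartilage, and −0.44 and 0.09 after median-of-ratios scaling.

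Of 12 superficial zone genes, 4 were lower in young injured cartilage and none higher, with a median of −0.55. Prg4, which encodes lubricin, the lubricant of the joint surface, was at 2049 and 3565 FPKM in sham and 421 and 2658 FPKM in injured cartilage, a ratio of −2.65. The young injured library was the lowest of the 4, and the sham ratio was −0.80. Cilp, a matrix protein of the intermediate layer, was at 74.9 and 795 FPKM after injury (−3.39), and Thbs4, a thrombospondin, had a ratio of −2.04. Cilp and Thbs4 were also called lower in young sham cartilage.

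Some genes of hypertrophic and mineralizing cells were lower in young injured cartilage, while most members of these lists were not called. Of 15 hypertrophic chondrocyte genes, 7 were lower and none higher, with a median of −0.85, and 4 of the 7 were also lower in young sham cartilage. Col10a1 (chr10:34389981-34397085), which encodes type X collagen, the product that defines hypertrophic chondrocytes, was at 338 and 459 FPKM in sham and 302 and 2446 FPKM in injured cartilage. Its ratio was −3.01, and the adult injured library was the one that stood apart. The sham ratio was −0.44 unscaled and −0.88 after median-of-ratios scaling. Ibsp, bone sialoprotein, was at 369 and 4136 FPKM in sham and 605 and 4218 FPKM in injured cartilage (−2.80). Vegfa, the main signal for vessel growth, was at 19.8 and 79.0 FPKM after injury (−1.94). Both Ibsp and Vegfa were lower in the young than in the adult library in either state, Vegfa with a sham ratio of −0.90. Spp1, osteopontin, was at 2338 and 4953 FPKM (−1.08), while Mmp13, the collagenase of hypertrophic cartilage, was at 474 and 518 FPKM (−0.13).

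Of 15 osteoblast and osteocyte genes, 6 were lower and none higher, with a median of −0.79. Sost, the Wnt inhibitor of osteocytes, was at 0.0915 and 8.67 FPKM after injury (−3.15), and Mepe, another osteocyte product, at 5.58 and 50.8 FPKM (−2.98). Of the 6 genes, 5 were called lower in young sham cartilage too. Of 15 osteoclast genes, 5 were lower and none higher, with a median of −0.69, and unscaled none was called in sham cartilage. The sham median was −0.16, and −0.42 after median-of-ratios scaling. Ctsk, the collagen-degrading protease of osteoclasts, was at 171 and 403 FPKM (−1.23). Acp5, tartrate-resistant acid phosphatase, was at 306 and 713 FPKM (−1.22), and Slc9b2 had a ratio of −1.26. After median-of-ratios scaling the sham ratios of Ctsk, Acp5 and Slc9b2 were −1.07, −0.98 and −0.49, that of Ctsk past the threshold. The summed level of the osteoclast list was 811 and 1479 FPKM. The amount of bone harvested with the cartilage was not analysed here, and the part of the osteoclast and osteoblast markers in other ratios was not tested.

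**Figure D3:**
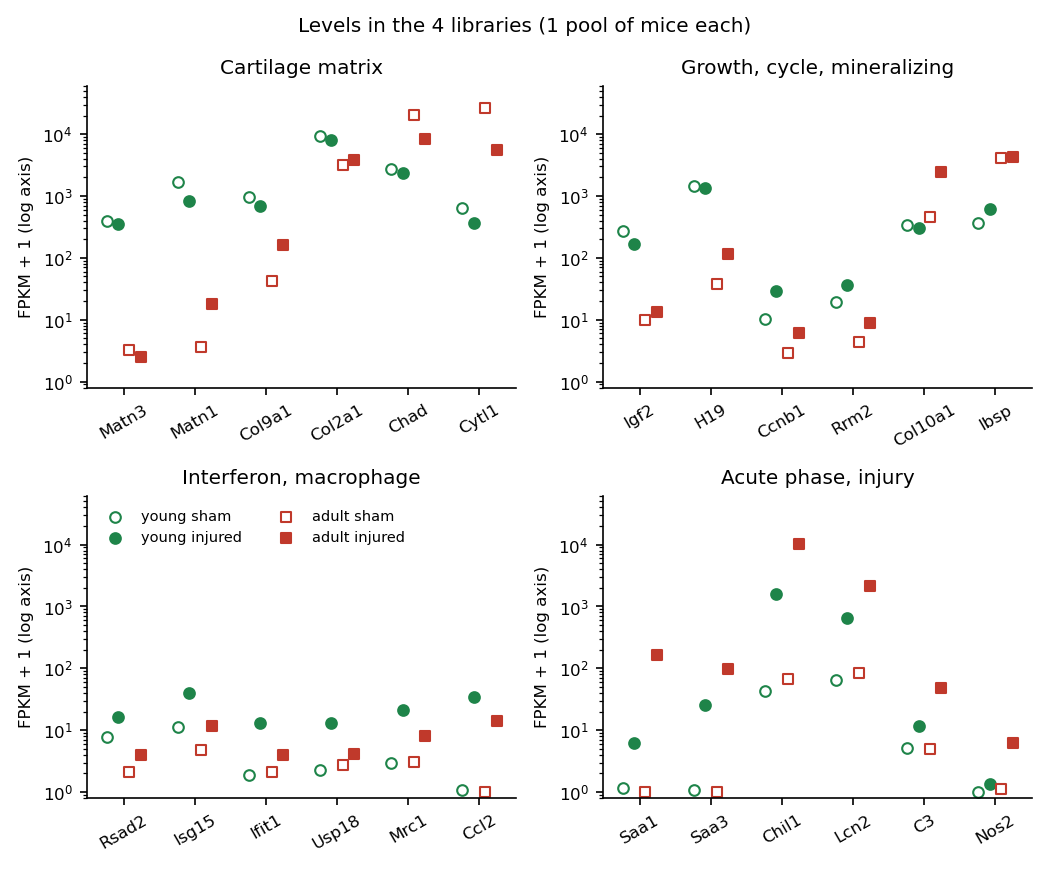
FPKM + 1 (log axis) of 24 genes in young (green circles) and adult (red squares) cartilage after sham surgery (open) and injury (filled), 1 library each. Matn3 and Igf2 split by age in both states, whereas Col10a1, Saa1 and Saa3 are highest in the adult injured library and Ifit1 and Usp18 in the young injured library.

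Of 29 imprinted and fetal growth genes, 14 were higher in young injured cartilage and 2 lower, with a median of 0.94 after injury and 1.18 after sham surgery. Igf2 (chr7:142650768-142666816), insulin-like growth factor 2, was at 275 and 8.80 FPKM in sham and 166 and 12.5 FPKM in injured cartilage, a ratio of 3.63. H19 (chr7:142575530-142578146), its neighbouring imprinted noncoding RNA, was at 1474 and 37.3 FPKM in sham and 1349 and 116 FPKM in injured cartilage, a ratio of 3.53. The split was by age in both states. Among noncoding RNAs of another imprinted domain, Rian (2.13), Mirg (1.93) and Meg3 (1.59) were higher as well. Cdkn1c, an imprinted inhibitor of the cell cycle, had a ratio of 1.15. The 2 lower genes were Phlda2 (−1.31) and Hmga1 (−1.01), of whose words 62.1% occur in other genes. Of 17 growth hormone and IGF genes, 3 were higher and 1 lower, with a median of 0.31. Stc1 (2.33), stanniocalcin, and Irs1 (1.19), an adaptor of the insulin and IGF receptors, were higher, as was Igf1 (1.19). The binding protein gene Igfbp6 was lower (−1.67).

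Of 40 cell cycle and DNA replication genes, 22 were higher in young injured cartilage, none was lower, and 39 had ratios above 0. Ccnb1, the cyclin that drives entry into mitosis, was at 9.23 and 1.86 FPKM in sham and 28.0 and 5.02 FPKM in injured cartilage, a ratio of 2.27. At both ages the injured library was above its sham library. Rrm2, which supplies deoxynucleotides, was at 34.9 and 7.94 FPKM (2.01), and Pcna, the replication clamp, at 103 and 62.2 FPKM (0.71). The list median was 1.17 in injured and 1.38 in sham cartilage, and the 22 genes were also called higher in young sham cartilage. Mcm6, a subunit of the replicative helicase, was the member below 0 (−0.13). Of the genes of blood cells that include dividing precursors, 20 of 22 erythroid and 8 of 16 B cell and precursor genes were higher in young injured cartilage, and their part in the cell cycle ratios was not tested. Of 22 cell cycle inhibitors and p53 targets, 1 was higher, Cdkn1c, and 1 lower, the stress gene Gadd45a, at 31.9 and 74.9 FPKM (−1.21).

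Of 78 cytosolic ribosomal protein genes, 77 had ratios above 0, unscaled and after median-of-ratios scaling, with medians of 0.63 and 0.52. The sham medians were 0.69 and 0.25. Called higher were Rps27, which is not called when its copy is added, and Rpl38 (1.01, and 0.89 scaled). Rplp2, of the ribosomal stalk, was the member below 0 (−0.40).

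Genes induced by type I interferon had ratios above 0 in injured cartilage, though most did not reach the 2-fold threshold. Type I interferons act through receptor kinases and a complex of transcription factors that binds the interferon-stimulated response element (ISRE) in the promoters of antiviral genes. Of 36 type I genes, 8 were called higher, none lower, and all 36 had ratios above 0, between 0.05 and 2.01. After median-of-ratios scaling 34 were above 0 and 7 were called higher. The median was 0.76 in injured and 0.09 in sham cartilage. Of the 8 genes, 3 were also called higher in sham cartilage and 4 had sham ratios between −0.5 and 0.5.

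Rsad2 (chr12:26442743-26456452), which encodes the antiviral enzyme viperin, was at 6.81 and 1.15 FPKM in sham and 15.3 and 3.03 FPKM in injured cartilage, a ratio of 2.01. Isg15 (chr4:156199424-156200818), a ubiquitin-like protein, was at 10.4 and 3.86 FPKM in sham and 39.5 and 10.7 FPKM in injured cartilage, a ratio of 1.80. Rsad2 and Isg15 were higher in young cartilage after sham surgery too. Ifit1 (chr19:34640889-34650009), which binds viral RNA, was at 0.897 and 1.14 FPKM in sham and 11.9 and 3.00 FPKM in injured cartilage, a ratio of 1.69. Usp18, the protease that removes ISG15 and dampens the receptor, was at 1.24 and 1.70 FPKM in sham and 12.2 and 3.19 FPKM in injured cartilage, a ratio of 1.66. For Ifit1 and Usp18 the sham levels were close and the young injured library stood above the other 3. The most abundant member, Ifi27l2a, was at 86.0 and 53.6 FPKM after injury (0.67). The smallest ratios were those of Ifi35 (0.05) and Adar (0.08), an RNA-editing enzyme, which were −0.06 and −0.02 after median-of-ratios scaling.

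The promoters of 3 of these genes are shown because they hold the ISRE letters, GAAA, any 2 bases and GAAA, read on both strands. Each line gives 100 bases upstream of the RefSeq start on GRCm38.p6, 5′ to 3′ in the direction of the gene, with the matches in capitals. The windows are chr19:34640749-34640848 on the plus strand for Ifit1, chr4:156200836-156200935 on the minus strand for Isg15 and chr12:26456518-26456617 on the minus strand for Rsad2. The 3 matches of Isg15 overlap each other.
Ifit1: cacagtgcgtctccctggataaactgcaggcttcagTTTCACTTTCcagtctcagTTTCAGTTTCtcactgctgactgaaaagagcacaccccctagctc
Isg15: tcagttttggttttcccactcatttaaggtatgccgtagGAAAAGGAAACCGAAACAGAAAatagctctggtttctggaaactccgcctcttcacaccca
Rsad2: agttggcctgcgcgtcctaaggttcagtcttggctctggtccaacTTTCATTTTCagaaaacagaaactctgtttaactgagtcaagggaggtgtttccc

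In windows of 250 bases before to 50 bases after the start, the ISRE letters were found for 14 of the 26 type I genes with a RefSeq promoter (53.8%). They were found for 3.99% of all 27025 genes with a promoter and for 3.76% of those tested, where a gene with several starts counted once if any window matched. Of the 24 type II interferon genes with a promoter, 10 held them (41.7%). Among all genes called higher in young injured cartilage they occurred for 18 of 391 (4.60%), and among those called lower for 11 of 233 (4.72%). A match describes the letters and does not show that a factor bound there.

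Genes of the type II interferon response, which follow interferon-gamma and include antigen presentation genes, had a median near that of all genes. Of 31 genes none was higher and 1 was lower, with a median of 0.02 in injured and −0.02 in sham cartilage. The sign of the injured median depended on the scaling, with −0.13 on the TPM scale and −0.06 under median-of-ratios scaling. The lower gene was H2-Ab1, an MHC class II chain, at 39.9 and 96.9 FPKM (−1.26), with a sham ratio of −1.13. Cd74, the class II invariant chain, was at 76.3 and 139 FPKM (−0.86). The GTPase genes Gbp7 (0.76) and Irgm1 (0.71) had the highest ratios, and B2m, the MHC class I light chain, was at 485 and 465 FPKM (0.06). Ifng itself was listed at 0 in 3 libraries and at 0.0322 FPKM in adult injured cartilage, a level at which no age difference can be read. Its receptor genes were close after injury, Ifngr1 at 36.5 and 36.6 FPKM and Ifngr2 at 18.4 and 18.7 FPKM. Of 19 interferon receptor and kinase genes 1 was called, Usp18, and the list median was 0.02.

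Of 24 macrophage genes, 1 was higher in young injured cartilage and none lower, with a median of 0.19 after injury and −0.45 after sham surgery. The higher gene was Mrc1 (chr2:14229414-14332023), the mannose receptor of resident and alternatively activated macrophages. It was at 1.90 and 2.05 FPKM in sham and 20.0 and 7.10 FPKM in injured cartilage, a ratio of 1.38, so the shams were close and the young injured library was the highest. Adgre1, which encodes the F4/80 antigen, was at 30.3 and 16.8 FPKM (0.82), while Cd14, the lipopolysaccharide co-receptor, was at 21.6 and 42.5 FPKM (−0.95, and −1.06 and called lower after median-of-ratios scaling). Lyz2, the most abundant member, was at 1271 and 1090.0 FPKM (0.22).

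Of 19 genes of macrophage activation none was higher and 3 were lower, with a median of −0.12. Nos2 (chr11:78920787-78960226), the inducible nitric oxide synthase, was at 0.00917 and 0.101 FPKM in sham and 0.341 and 5.17 FPKM in injured cartilage, a ratio of −2.20. Il1b, the cytokine interleukin-1 beta, was at 0.394 and 0.453 FPKM in sham and 8.27 and 22.2 FPKM in injured cartilage, a ratio of −1.32. In both genes the adult injured library was the highest. Tnf was at 2.02 and 1.81 FPKM (0.10). Of 20 neutrophil genes 2 were lower, Lcn2 (−1.73) and the granule enzyme Mpo (−1.01), and the median was 0.06.

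Of 29 chemokine genes, 5 were higher and 5 lower in young injured cartilage, with a median of −0.10, and 9 of the 10 had sham ratios between −0.5 and 0.5, Cx3cl1 being the exception. The monocyte attractants Ccl2, at 34.1 and 13.0 FPKM (1.32), and Ccl6, at 95.9 and 37.9 FPKM (1.32), were higher. The other higher genes were Ccl7 (1.27), Ccl12 (1.20) and the platelet chemokine Ppbp (1.03), which was not called after median-of-ratios scaling (0.91). The neutrophil attractant Cxcl2, at 0.811 and 4.50 FPKM (−1.60), was lower, together with Cx3cl1 (−1.51), Cxcl14 (−1.04), Cxcl1 (−1.02) and Cxcl3, which was at the threshold. Ccl2, Ccl7, Ccl12, Cxcl1, Cxcl2 and Cxcl3 were below 1 FPKM in both sham libraries, where the added 1 FPKM holds ratios near 0. Ccl7, Ccl12, Ppbp, Cxcl14, Cxcl1 and Cxcl3 were named after their values were seen.

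Acute phase and injury-secreted genes mostly had ratios below 0 in injured cartilage. Liver, epithelium, chondrocytes and phagocytes make these proteins under interleukin-1 and interleukin-6, in part through C/EBP factors. Of 29 genes 12 were lower, none was higher and 25 had ratios below 0, with a median of −0.71. The sham median was 0.00, and of the 12 genes 6 had sham ratios between −0.5 and 0.5 and 2 were called lower there, while Bpifb1, a secreted protein of epithelia named after its values were seen, was called higher there. Among these 6 genes only Lcn2 was above 1 FPKM in the sham libraries. The added 1 FPKM holds the sham ratios of the others near 0, and that of Lcn2 was −0.79 after median-of-ratios scaling. Bpifb1 was at 2.58 and 0.356 FPKM in sham and 246 and 528 FPKM in injured cartilage, with ratios of 1.40 after sham surgery and −1.10 after injury. Saa1 (chr7:46740497-46743181), the serum amyloid A1 gene, had the lowest ratio (−4.75), at 0.157 and 0 FPKM in sham and 5.13 and 164 FPKM in injured cartilage. Saa2 was at 2.56 and 46.1 FPKM after injury (−3.72). Of their words 46.8% and 44.5% occur in other genes, and their sum of 7.69 and 210.5 FPKM had a ratio of −4.61. Saa3, a serum amyloid made outside the liver with 7.44% of its words shared, was at 24.6 and 94.9 FPKM (−1.90).

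Chil1 (chr1:134182156-134190031), which encodes a chitinase-like glycoprotein of inflamed cartilage, was at 42.4 and 66.5 FPKM in sham and 1576 and 10398 FPKM in injured cartilage, a ratio of −2.72. Both injured libraries were far above their shams, and the adult one was the highest. Lcn2, the iron-binding lipocalin of neutrophils and stressed chondrocytes, was at 64.6 and 82.7 FPKM in sham and 639 and 2117 FPKM in injured cartilage, a ratio of −1.73. The median of the neutrophil list beside it was 0.06. Of 20 complement genes 2 were lower and none higher, with a median of −0.27. C3, the central complement component, was at 4.15 and 3.93 FPKM in sham and 10.8 and 47.0 FPKM in injured cartilage, a ratio of −2.02, and stood highest in the adult injured library. C1ra was the other (−1.41), and 56.9% of its words occur in other genes.

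Upstream windows of Saa2, Lcn2 and C3 are shown because they hold the C/EBP letters TTNNGCAA, where N is any base, read on both strands and in capitals in the same layout. The windows are chr7:46751604-46751703 on the plus strand for Saa2, chr2:32387890-32387989 on the minus strand for Lcn2 and chr17:57228137-57228236 on the minus strand for C3.
Saa2: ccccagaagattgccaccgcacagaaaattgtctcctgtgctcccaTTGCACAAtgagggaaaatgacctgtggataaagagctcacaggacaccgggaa
Lcn2: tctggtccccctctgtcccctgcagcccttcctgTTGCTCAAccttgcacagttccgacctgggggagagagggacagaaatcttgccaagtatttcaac
C3: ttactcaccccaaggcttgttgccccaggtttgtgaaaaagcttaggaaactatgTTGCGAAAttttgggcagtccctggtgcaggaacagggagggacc

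The letters occurred, from 250 bases before to 50 after the start, for 11 of 20 acute phase genes with a promoter (55.0%), against 12.2% of all genes with a promoter and 10.7% of those tested. Chil1 and Il1b, also looked at for display, did not hold them. C3 belongs to the complement list and is not among these 20 genes. Among genes called lower in young injured cartilage they occurred for 36 of 233 (15.5%), and among those called higher for 39 of 391 (9.97%). The reference tables place the starts of Saa1 and Saa3 differently, so their windows are uncertain, and without both genes the letters occurred for 9 of 18 acute phase genes, a count added after seeing the data. None of the 26 type I interferon genes with a promoter held them.

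**Figure D4:**
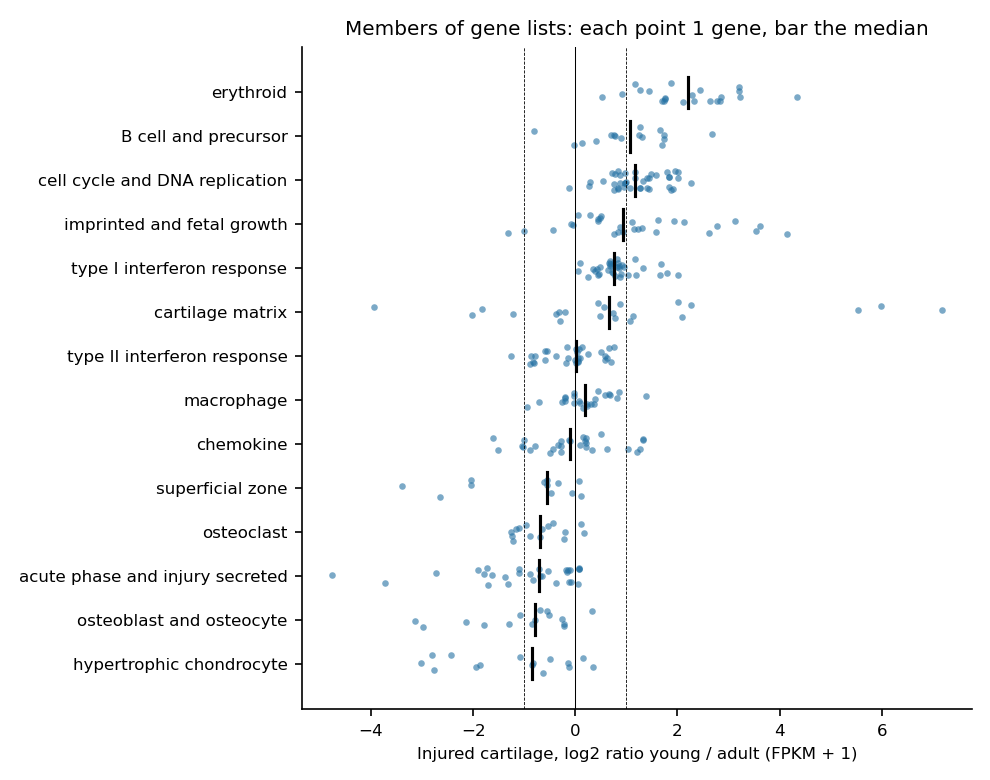
Log2 ratio of FPKM + 1, young over adult injured cartilage, for each member of 14 gene lists (points) with the list median (bar). Dashed lines mark 2-fold; type I interferon points lie above 0, and acute phase points reach down to −4.75.

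Further genes with sham ratios between −0.5 and 0.5 were found by rank among the 4203 such genes at a mean of 5 FPKM or more. The 8 highest were Fam25c (1.82), Il1rl1 (1.78), Cav3 (1.70), Ifit1, Usp18, Ube2v1 (1.61), Mrc1 and Ccl2. Il1rl1, the receptor of interleukin-33, was at 0.227 and 0.156 FPKM in sham and 8.84 and 1.86 FPKM in injured cartilage. Both shams were near 0, and the young injured library was the highest. Cav3, a caveolin of muscle membranes, was at 8.93 and 2.05 FPKM after injury. Of 21 skeletal muscle genes, which summed to 888 and 586 FPKM, 1 was higher, Myl1 (1.01, and 0.90 scaled), and 1 lower, Mb (−1.15), and the part of muscle in the Cav3 ratio was not tested. The 8 lowest were Rps27rt, Saa1, Saa2, Col10a1, Tmem254c, C3, Saa3 and Lcn2. After median-of-ratios scaling the sham ratios of Fam25c (−0.57), Usp18 (−0.54), Rps27rt (−0.72), Col10a1 (−0.88) and Lcn2 (−0.79) fell below −0.5. All words of Tmem254c (−2.39) occur in other genes, so its value is uncertain.

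Genes of blood cells had some of the highest list medians. Of 22 erythroid genes, 20 were higher in young injured cartilage and none lower, with a median of 2.20, and of 1.82 without near-identical copies. The beta globin genes summed to 15006 and 4282 FPKM in sham and 25845 and 3996 FPKM in injured cartilage, a ratio of 2.69. Slc4a1, the anion exchanger of the red cell membrane, was at 43.4 and 3.80 FPKM (3.21). The list median was above 0 in both states, with a sham median of 1.64, where 19 genes were called higher and 1 lower. The lowest members were Tfrc, the transferrin receptor of many dividing cells (0.52), and Car1, a carbonic anhydrase (0.91). Of 16 B cell and precursor genes, 8 were higher and none lower, with medians of 1.07 and 1.17 in injured and sham cartilage. Vpreb3, a gene of developing B cells, had a ratio of 2.68, and Ms4a1 and Cd79b each had one of 1.74. Of 12 platelet and megakaryocyte genes, 3 were higher, with a median of 0.49. The highest was Gp9, a platelet receptor subunit, at 4.01 and 0.924 FPKM (1.38). Unscaled, none was called of the 15 T and NK cell, 18 endothelial, 12 adipocyte, 11 mast cell and basophil or 11 nerve and Schwann cell genes, whose medians were −0.12, 0.14, 0.33, −0.09 and 0.05. Of these lists 3, 16, 6, 4 and 5 genes reached a mean of 1 FPKM over the injured libraries. A gene below 1 FPKM in both libraries cannot be called. Of the 15 T and NK cell genes, 14 had ratios below 0. After median-of-ratios scaling 1 T and NK cell gene was called lower, the granule protein gene Nkg7 (−1.04).

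Of 39 TGF-beta and BMP genes, 6 were lower in young injured cartilage and none higher, with a median of −0.36. Gdf10, a member of the BMP family, was at 16.5 and 61.4 FPKM in sham and 11.7 and 41.8 FPKM in injured cartilage, with ratios of −1.75 and −1.84 after injury and sham surgery. Bmp2, a bone-inducing ligand, was at 2.82 and 11.4 FPKM after injury, a ratio of −1.70 against −0.25 in sham cartilage. The highest ratios were those of Ltbp1 (0.85), which stores latent TGF-beta in the matrix, and the receptor gene Tgfbr1 (0.81). Of 36 Wnt genes, 6 were lower and 2 higher, with a median of −0.35. The lower genes included the secreted inhibitor Dkk1, at 1.33 and 21.4 FPKM (−3.26), and Sost, with sham ratios of −2.95 and −4.21. The higher genes were Rspo3 (2.05, with a sham ratio of 2.73), which amplifies Wnt signals, and Sfrp5, a secreted inhibitor. Sfrp5 was at 57.1 and 85.9 FPKM in sham and 46.5 and 10.7 FPKM in injured cartilage (2.02), and the adult injured library was the lowest. Of 16 Hedgehog genes, 3 were lower and none higher, with a median of −0.25. Ihh, the ligand of prehypertrophic chondrocytes, was the lowest, at 1.34 and 7.55 FPKM (−1.87), with a sham ratio of −2.30. Of 21 FGF genes, Fgf1 was lower (−1.33) and the receptor gene Fgfr4 higher (1.63), with a median of −0.28, and the abundant receptor Fgfr3 had a ratio of −0.41. After median-of-ratios scaling 8 Wnt and 3 FGF genes were called lower.

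Of 21 provisional matrix genes, 3 were higher and 1 lower, with a median of 0.04. Fn1, fibronectin, the lower gene, was at 226 and 442 FPKM in sham and 1869 and 3803 FPKM in injured cartilage (−1.02). It was higher in the injured than in the sham library at both ages. Col12a1 (1.62), a fibril-associated collagen, and Acta2, smooth muscle actin (1.49), were higher, and they were also called higher in young sham cartilage. Of 22 matrix proteases, 2 were lower, with a median of −0.05. They were Mmp3, stromelysin, at 152 and 673 FPKM (−2.14), and Htra1 (−1.20). Both were also called lower in young sham cartilage, with ratios of −2.82 and −1.61. Of 20 protease inhibitors, 6 were lower, 5 of them Serpina1 genes, and A2m, alpha-2-macroglobulin, was higher at 27.9 and 1.52 FPKM (3.52), with a median of −0.35. The 6 lower genes and A2m were called in the same direction in sham cartilage, A2m with a ratio of 4.80. Of 24 glycosaminoglycan synthesis genes, 1 was higher, Papss2 (1.09, and 0.98 scaled), which makes the sulfate donor. Lower were the hyaluronan synthase Has1 (−1.80) and the sulfotransferase Chst12 (−1.58). Of 20 collagen processing genes, 1 was higher, the procollagen protease Adamts3 (1.08, and 0.97 scaled), with a median of 0.13.

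Of 16 fibroblast and synovium genes, 1 was higher and 3 were lower, with a median of −0.28. Col14a1 (1.81), a fibril-associated collagen, was higher, and Prg4, the actin-severing protein gene Gsn (−2.35) and Htra1 were lower. Col14a1, Gsn and Htra1 were called in the same direction in sham cartilage, Gsn with a ratio of −3.54. Dcn, decorin, at 2786 and 5555 FPKM, stayed just short of the threshold unscaled and was called lower after median-of-ratios scaling (−1.11), which made 4 lower genes in the list. Of 10 tendon and ligament genes, 2 were higher and 2 lower, with a median of 0.48. Scx, the transcription factor of tendon cells, was at 2.97 and 5.18 FPKM in sham and 9.75 and 3.98 FPKM in injured cartilage (1.11), with the young injured library above the other 3.

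Of 22 immediate early genes, 5 were lower in young injured cartilage and none higher, with a median of −0.62. Dusp1, a phosphatase induced by stress, was at 18.9 and 95.1 FPKM (−2.27), Ier3 at 12.1 and 44.3 FPKM (−1.79) and the transcription factor gene Egr1 at 7.09 and 19.1 FPKM (−1.31). Dusp1 and Egr1 were also called lower in young sham cartilage. Of 19 circadian clock genes, Dbp (−1.96) and Nr1d1 (−1.44) were lower, with sham ratios of −2.39 and −1.77 and a list median of −0.56. After median-of-ratios scaling 5 clock genes were called lower, with Bhlhe40, the most abundant of the list, and Cry2 and Tef, both named after their values were seen, in addition. Both Dbp and Nr1d1 cycle through the day, and the hour of tissue collection is not given in the sources used here. Of 21 antioxidant and metallothionein genes, 5 were lower and none higher, with a median of 0.07. Extracellular superoxide dismutase, Sod3, was at 39.8 and 244 FPKM (−2.58). The glutathione peroxidase genes Gpx1 (−2.18) and Gpx3 (−2.08) were lower as well, and the 5 genes were also called lower in young sham cartilage.

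Of 31 glycolysis and hypoxia genes, 4 were lower and none higher, with a median of −0.43. The lowest were Vegfa and Adm, adrenomedullin, at 1.22 and 5.33 FPKM (−1.51). Of 48 respiratory chain and ATP synthase genes, 42 had ratios above 0, with a median of 0.37, and 1 was called higher, Atp5g1 (1.23). Of 23 cholesterol synthesis genes none was called after injury, with a median of 0.03, whereas 13 were called higher in young sham cartilage, where the median was 1.13 (0.73 after median-of-ratios scaling). Of 12 long noncoding RNA genes, the imprinted Rian, Mirg and Meg3 were higher and Neat1 lower, with a median of 0.33. Of 20 housekeeping genes, 1 was higher and none lower, 1 was lower after median-of-ratios scaling, and the median was 0.08. None of 5 sex-linked genes was called.

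**Figure D5:**
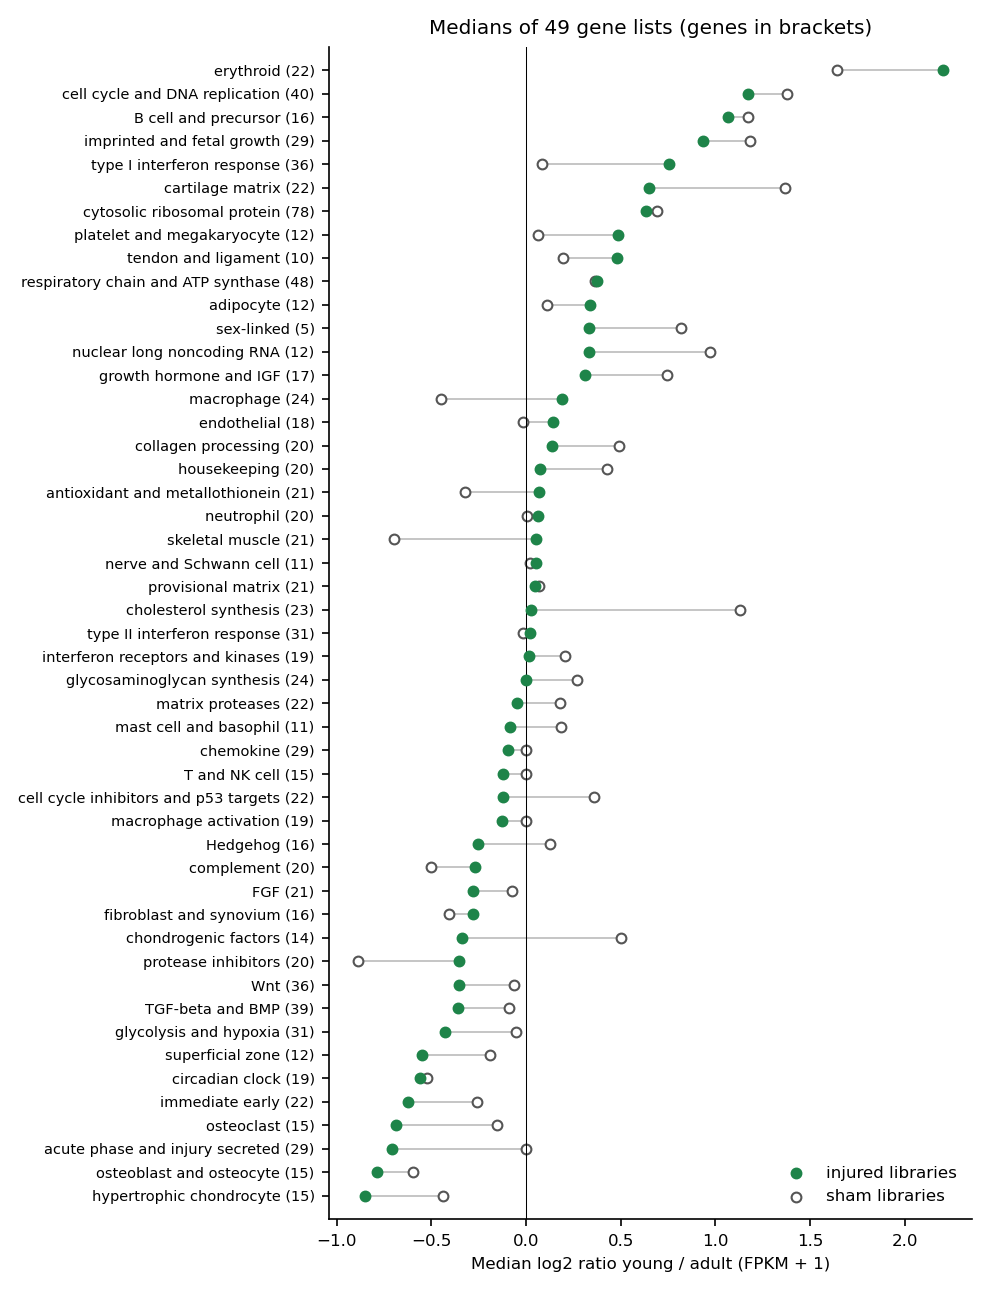
Median log2 ratio of FPKM + 1, young over adult, of 49 gene lists in injured (filled) and sham (open) cartilage, ordered by the injured median, with the number of tested genes in brackets. The type I interferon median is 0.76 in injured and 0.09 in sham cartilage, the acute phase median −0.71 and 0.00, and the cholesterol synthesis median 0.03 and 1.13.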

How the data were processed

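The authors deposited FPKM values for 24532 genes in 4 libraries, 1 per group, made from strand-specific poly-A RNA and mapped to mm10. The submitters' processing notes name HISAT2 2.1.0, StringTie 1.3.4d, STAR and SAMtools without their roles. FPKM are already divided by transcript length and by mapped fragments. From them, log2 ratios of FPKM + 1 were computed for genes above 0 in at least 1 injured library. No p-value was computed, since each group is 1 pool. Precision per gene is unknown, as fragment counts were not analysed.

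Genes named are, at a mean of 5 FPKM or more, the 10 highest and 10 lowest ratios, the 8 highest and lowest with sham ratios between −0.5 and 0.5 and the 5 largest opposite differences. In each list, at a mean of 1 FPKM or more, the 2 highest, the 2 lowest and the most abundant member were named, with interferon-gamma, macrophage and chondrocyte genes. Further names complete small sets and were chosen after their values were seen. A few genes that these rules name are not reported here. The comparison, the 49 lists and the rules were chosen with earlier results of these data known. Of 1052 listed genes, 1048 were in the table. Copies were measured as 31-base words shared with other genes, at 50% or more. Alternatives were 3 scalings, pseudocounts of 0.1 and 5 FPKM, a 1 FPKM filter, 1.5-fold and 3-fold thresholds and leaving out copies. Summing copies and leaving out markers of other cells were added later. Scripts were tested on simulated data. Promoters are RefSeq GRCm38.p6. Python 3.11.15, numpy 2.4.6, pandas 2.3.3 and matplotlib 3.10.9 were used.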

Additional observations from a re-analysis of the deposited data

Results flagged for a closer look

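Among genes whose mean over the injured libraries reached 5 FPKM, 5 were chosen for the largest gap between age ratios that pointed in opposite directions after injury and after sham surgery, at least 2-fold each time. None of these differences was tested, because each group is 1 library. Ratios are log2 of FPKM + 1, young over adult, and the gap is the injured minus the sham ratio. Neat1, a nuclear noncoding RNA that forms paraspeckles, was at 234 and 0.828 FPKM in sham and 257 and 518 FPKM in injured cartilage, young first. Its ratios were −1.01 and 7.01, a gap of −8.01, and the adult sham library stood apart from the other 3. Hbb-bs, a beta globin gene, had ratios of 3.22 after injury and −4.75 after sham surgery, a gap of 7.96, and 54.4% of its words occur in other genes. The beta globin sum had ratios of 2.69 and 1.81, which do not point in opposite directions. Amd1, which encodes an enzyme of polyamine synthesis, had ratios of 3.22 and −2.38, a gap of 5.60, with 81.9% of its words shared. The sum of Amd1 and its copy had ratios of 0.60 and 1.55. Mir5625, a microRNA gene whose words all occur in other genes, had ratios of 2.79 and −1.77, a gap of 4.56. Foxa2, with 0.338% of its words shared, had ratios of −1.09 and 1.90, a gap of −2.99.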

How the results depend on the processing

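With 1 library per group no replicate could be left out. No paired analysis was possible because each group has 1 library and no test was run. The unscaled counts of genes called higher, called lower, and called higher or lower with a sham ratio near 0 were 561, 328, 51 and 78, and 70.2% and 52.7% of the called genes were also called in sham cartilage. These 4 counts became 1503, 843, 235 and 253 with 0.1 FPKM added, 210, 143, 16 and 29 with 5 FPKM added, 1779, 1001, 349 and 381 at 1.5-fold, and 188, 96, 6 and 12 at 3-fold. On the TPM scale 625 genes were lower, 180 of them with a sham ratio near 0. The share of higher genes also called in sham cartilage became 58.9% after median-of-ratios scaling, 77.5% on the TPM scale, 57.7% after quantile normalization, 62.4% with 5 FPKM added, 75.2% at 1.5-fold and 63.3% at 3-fold. That of lower genes became 65.4%, 42.2% and 62.3% under the 3 scalings, 42.0% with 0.1 FPKM added and 59.4% at 3-fold. The cause of these shifts was not tested. Under the 1 FPKM filter, without copies, with copies summed and without markers of other cells, the last 2 chosen after seeing the data, the counts of higher and lower genes were 561 and 328, 522 and 302, 554 and 318, and 528 and 325. Of the values of 257 named genes and 49 list medians under the alternatives, 84 moved by over 1.5-fold, and all 84 kept their sign. Most were named genes under another pseudocount, 26 with 0.1 FPKM and 45 with 5 FPKM added, while 9 moved on the TPM scale. A changed pseudocount cannot turn the sign of a gene's ratio, so for those genes the kept sign is no check. Over the 4 scalings 39 list medians had 1 sign and 10 did not. In lists not described with their scaled counts, median-of-ratios scaling gave 6 lower osteoclast, 8 protease inhibitor, 7 TGF-beta and BMP, 3 complement, 3 neutrophil, 3 tendon and ligament and 5 glycolysis and hypoxia genes, and 21 higher cell cycle, 2 provisional matrix and 2 platelet genes. Marker lists have no value without their own genes.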
